A study of Mus musculus with 16 samples.

Results

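The 39 collagen genes described here are all genes of the deposited mouse table whose symbol has the form of a collagen chain (Col, a type number, a chain number), apart from Col2a1, Col9a1, Col9a2, Col9a3 and Col11a2, which belong with cartilage. They are 39 of 45777 listed genes and 39 of the 44 that the table lists under such symbols. They were compared in ear skin of C57BL/6 wild-type mice between 3 libraries of mice given an antibody against oncostatin M (anti-OSM), a cytokine of the interleukin-6 family, and 3 libraries of mice given an antibody against Ly6G (anti-Ly6G), a surface protein of neutrophils. Both groups had received MC903 (calcipotriol, a vitamin D analogue that causes inflammation resembling atopic dermatitis) at 50 µM in 20 µL of ethanol on both ears each day for 10 days. Anti-OSM was given at 20 µg per mouse into the skin on alternate days of that period, and anti-Ly6G at 200 µg per mouse into the peritoneum 2 days before MC903 and 1 and 4 days after it. Antibody, route and schedule differed together, no isotype antibody is named for either group, and the labels give no age, batch or day of collection. The labels list 16 libraries. The 5 of control ears and the 5 of ears given MC903 without antibody were not analysed here, so which of the 2 antibody groups moved from the MC903 state cannot be told. Nothing in the labels ties each replicate to its own mouse, and p-values therefore cover the spread from library to library, which may be technical.

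Collagens are proteins of the extracellular matrix whose chains wind in threes into a triple helix. Fibrillar collagens build the cable-like fibrils of the dermis, the network collagen of type IV forms the sheet of basement membranes, type VI makes beaded microfilaments that link cells to fibrils, and types VII and XVII fasten the epidermis to the dermis. FACIT collagens, so named for interrupted triple helices, sit on the surface of fibrils, and in skin most of the fibrillar and beaded-filament chains are made by fibroblasts.

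All 39 genes had enough reads to be tested. With anti-OSM relative to anti-Ly6G, 4 were higher (Col1a2, Col6a1, Col6a2 and Col14a1), 5 were lower (Col10a1, Col27a1, Col4a4, Col5a3 and Col11a1) and 30 did not pass an adjusted p of 0.05 in edgeR's quasi-likelihood test. That is 23.1% of the members called, beside 12.1% of all 19915 genes tested; in the upward direction it is 10.3% beside 5.81%, and in the downward direction 12.8% beside 6.27%. The median log2 fold change of the members was -0.13, beside 0.01 for all genes. Positive values were found for 14 of the 39, beside 10170 of all 19915 genes. CPM values (read counts scaled to the size of the library) did not overlap between the groups for 17 members, or 43.6%, beside 35.0% of all genes. These calls changed with the libraries used, as did those over all genes. The higher count was 0 or 1 when any library but anti-Ly6G replicate 3 was left out and 8 without anti-Ly6G replicate 3. The lower count ranged from 3 to 5. Over all genes, the higher count was 240 to 580 in the former fits and 1545 without anti-Ly6G replicate 3, beside 1157 with all libraries. The lower count over all genes was 420 to 739 and 1447 in these fits, beside 1249. Col10a1, Col11a1 and Col27a1 passed in all 6 of those fits.

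**Figure D1:**
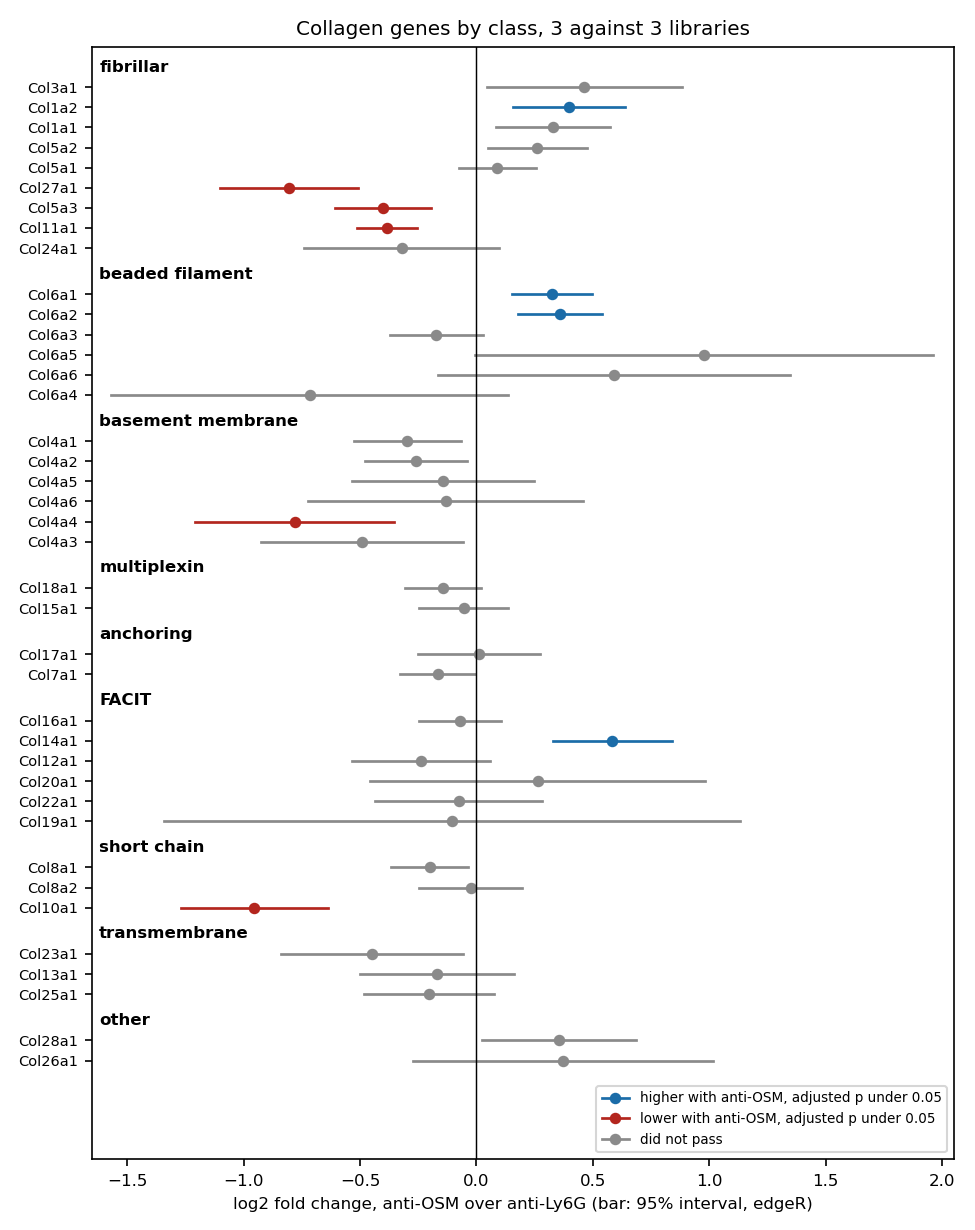
Log2 fold change of each of the 39 collagen genes (x axis, anti-OSM over anti-Ly6G, 3 libraries each) with a 95% interval computed from edgeR's F statistic, grouped by class and ordered within a class by mean TPM. The 4 genes higher with anti-OSM are in the fibrillar, beaded filament and FACIT classes, and the 5 lower ones in the fibrillar, basement membrane and short chain classes.

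On the TPM scale (transcript abundance scaled by gene length and library), Col3a1 was the most abundant member at 1061 TPM on average over the 6 libraries, followed by Col1a2 at 611, Col17a1 at 381, Col1a1 at 375, Col6a1 at 343.5 and Col6a2 at 331. Neighbours in this order such as Col17a1 and Col1a1, or Col6a1 and Col6a2, had overlapping library values. Col19a1 was the least abundant at 0.0511 TPM. The members' TPM summed to 4381, 4365 and 4171 in the anti-OSM libraries and to 3430, 3458 and 4176 in the anti-Ly6G libraries. Anti-Ly6G replicate 3 lay within the anti-OSM range and the other anti-Ly6G libraries below it. Fibrillar genes held 59.3% ± 0.724 of this sum with anti-OSM and 54.2% ± 4.57 with anti-Ly6G (SD, n = 3 each), and these shares did not overlap. Basement membrane genes held 2.78% ± 0.236 and 4.01% ± 0.408, short chain genes 4.25% ± 0.132 and 5.84% ± 0.566, and these shares did not overlap either, nor did those of the FACIT, multiplexin and transmembrane genes, all lower with anti-OSM. Shares of a whole depend on each other, since a larger fibrillar sum lowers the rest. The sums themselves did not overlap for the fibrillar genes, for the short chain genes (180.0 to 186 TPM with anti-OSM, 211 to 216 with anti-Ly6G) and for the beaded filament genes (791 to 881 and 659 to 759 TPM). They overlapped for the basement membrane genes (109 to 134 and 126 to 163 TPM) and for the FACIT, multiplexin, transmembrane and anchoring genes. Shares of the beaded filament genes, 19.7% ± 0.657 and 19.2% ± 0.968, and of the anchoring genes, 9.23% ± 0.554 and 11.1% ± 2.53, overlapped.

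**Figure D2:**
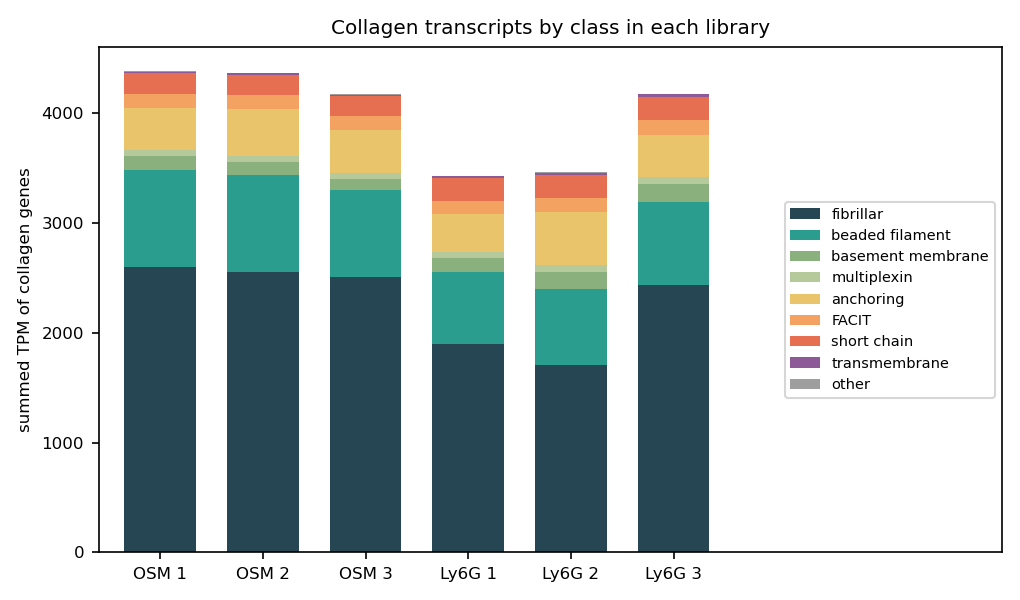
Summed TPM of collagen genes in each of the 6 libraries as stacked bars (OSM, anti-OSM; Ly6G, anti-Ly6G), coloured by collagen class. The fibrillar sum lies between 2503 and 2599 TPM in the anti-OSM libraries and between 1702 and 2430 in the anti-Ly6G libraries.

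Among the 9 fibrillar genes, which form or regulate the fibrils of dermis and cartilage, 1 was higher and 3 were lower with anti-OSM. The shares over all genes tested were 5.81% and 6.27%, and the median log2 fold change of the fibrillar genes was 0.09. The 5 most abundant (Col3a1, Col1a2, Col1a1, Col5a2 and Col5a1) had positive values and the 4 least abundant (Col27a1, Col5a3, Col11a1 and Col24a1) negative ones. Col1a2 (chr6:4505618-4541543 of GRCm38), which encodes the second chain of type I collagen, the main collagen of dermis, was measured at 1762, 1825 and 1651 CPM in the anti-OSM libraries and 1309, 1167 and 1501 CPM in the anti-Ly6G libraries. All anti-OSM values lay above all anti-Ly6G values, and the log2 fold change was 0.40 (adjusted p = 0.0443, SE 0.11). Col1a1, the partner chain of the same molecule, was at 1185, 1260.1 and 1129 CPM with anti-OSM and 910.3, 842 and 1095 CPM with anti-Ly6G. Its groups did not overlap, with anti-Ly6G replicate 3 closest to the anti-OSM values, but its log2 fold change of 0.33 (adjusted p = 0.0851, SE 0.11) did not pass. Col3a1, the type III chain of extensible tissues, was at 3241, 3218 and 3429 CPM with anti-OSM and 2337, 1753.5 and 3086 CPM with anti-Ly6G. Its anti-Ly6G libraries were spread over a range far wider than the anti-OSM ones (SD 668 against 116 CPM), and the log2 fold change of 0.46 (adjusted p = 0.138, SE 0.18) did not reach the threshold. When anti-Ly6G replicate 3 was left out, Col1a1 (0.44, adjusted p = 0.0183), Col3a1 (0.68, adjusted p = 0.0140) and Col5a2 (0.36, adjusted p = 0.0218) passed as well. Col1a2 passed in that fit but in none of the other 5 that left out a library. Type V chains join type I in the same fibrils and limit their width; Col5a2 (0.26, adjusted p = 0.105) and Col5a1 (0.090, adjusted p = 0.452) did not pass with all libraries.

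Col5a3 (chr9:20770050-20815117), the third type V chain, was lower with anti-OSM, at 73.9, 60.5 and 60.4 CPM in the anti-OSM libraries and 87.9, 81.1 and 88.5 CPM in the anti-Ly6G libraries. The lowest anti-Ly6G value was above the highest anti-OSM value, and the log2 fold change was -0.40 (adjusted p = 0.0259, SE 0.090). It passed in 3 of the 6 fits that left out a library, those without anti-OSM replicate 1, anti-Ly6G replicate 2 or anti-Ly6G replicate 3. Per length, Col5a3 stood at 0.427 ± 0.0206 of Col5a1 with anti-OSM and at 0.602 ± 0.0335 with anti-Ly6G (SD, n = 3 each), with no overlap.

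The other lower fibrillar genes are known from cartilage and growing bone. Col11a1 (chr3:114030479-114220756), a type XI chain that nucleates cartilage fibrils, was at 51.3, 49.9 and 50.1 CPM in the anti-OSM libraries and 66.8, 65.8 and 65.0 CPM in the anti-Ly6G libraries. Both groups were tight and well apart, and the log2 fold change was -0.39 (adjusted p = 0.00739, SE 0.057). Col27a1 (chr4:63214009-63334991), a fibrillar collagen of the growth plate, was at 110.4, 77.4 and 82.6 CPM in the anti-OSM libraries and 150.4, 167 and 154 CPM in the anti-Ly6G libraries. All its anti-OSM values were below all its anti-Ly6G values, with a log2 fold change of -0.80 (adjusted p = 0.0108, SE 0.13). Col24a1 was measured at 2.63 ± 0.396 and 3.28 ± 0.616 CPM (SD, n = 3 each) and did not pass (-0.32, adjusted p = 0.289). Outside the fibrillar class, Col10a1 (chr10:34389981-34397085), a short chain collagen that marks hypertrophic chondrocytes, was at 7.69, 8.59 and 8.57 CPM in the anti-OSM libraries and 13.8, 14.9 and 19.4 CPM in the anti-Ly6G libraries. The groups lay far apart, and its log2 fold change of -0.95 (adjusted p = 0.00709, SE 0.14) was the lowest of the 39. Col10a1 lies wholly within Nt5dc1, and whether counting used strand was not given in the sources used here, so reads of these genes cannot be told apart there. Nt5dc1 itself was at 31.3 ± 3.11 and 30.4 ± 1.16 CPM, a log2 fold change of 0.040 (adjusted p = 0.800).

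Markers of cartilage were lower beside Col10a1, Col11a1 and Col27a1. Of 14 cartilage markers, 13 were tested, 9 were lower with anti-OSM and 0 higher, and their summed level was 452 to 485 CPM with anti-OSM, against 658 to 759 with anti-Ly6G. Over all genes tested, 6.27% were lower. Acan, the large proteoglycan of cartilage (-1.09, adjusted p = 0.00275), and Cnmd, a cartilage growth regulator (-0.93, adjusted p = 0.00247), were among the lower ones; the list also holds the 5 collagens left out here, all lower, between -1.11 and -0.38 on the log2 scale. The lower count of the list was 8 or 9 whichever library was left out. The part of cartilage in the values of these collagens was not tested, and in bulk tissue fewer cells of a type and less RNA per cell cannot be told apart.

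The 120 bases before the annotated start of the called genes are shown, where they overlapped no exon annotated by GENCODE M21, as the starts of 4 lower genes and 1 higher gene (RefSeq, GRCm38.p6, 5′ to 3′ along the gene). Capitals mark any match, on either strand, to CCAAT (the NF-Y box), TATAAA (the TATA box), GGGCGG (a GC box) or TTCNNNGAA (a STAT motif, searched because oncostatin M signals through STAT3). Starts are those of the promoter table. The RefSeq gene record of Col27a1 begins upstream of its window, and those of Col11a1 and Col5a3 begin within theirs, so these windows include bases of the RefSeq records.
Col10a1 (chr10:34389861-34389980, plus strand): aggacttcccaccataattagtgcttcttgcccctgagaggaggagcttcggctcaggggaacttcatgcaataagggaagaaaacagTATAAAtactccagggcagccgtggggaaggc
Col11a1 (chr3:114030420-114030539, plus strand): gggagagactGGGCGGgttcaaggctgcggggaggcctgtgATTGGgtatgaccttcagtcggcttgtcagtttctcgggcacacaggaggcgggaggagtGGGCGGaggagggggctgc
Col27a1 (chr4:63215292-63215411, plus strand): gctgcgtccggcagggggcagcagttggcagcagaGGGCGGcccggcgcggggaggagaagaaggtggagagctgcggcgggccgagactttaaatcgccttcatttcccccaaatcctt
Col5a3 (chr9:20815068-20815187, minus strand): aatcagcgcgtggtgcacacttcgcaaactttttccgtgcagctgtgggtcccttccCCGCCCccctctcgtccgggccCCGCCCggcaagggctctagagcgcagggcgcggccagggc
Col6a2, the upstream one of its 2 listed starts (chr10:76623631-76623750, minus strand): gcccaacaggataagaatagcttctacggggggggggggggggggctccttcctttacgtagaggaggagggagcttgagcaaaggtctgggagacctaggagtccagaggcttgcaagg
Col10a1 has a TATA box match 32 bases before its start, and Col11a1, Col27a1 and Col5a3 each have GC box matches. This window of Col6a2 holds none of the 4 motifs, but the window of its other start, which overlaps an exon and is not shown, holds GGGCGG 67, 15 and 11 bases before the start, the last pair overlapping. RefSeq promoter entries were found for 32 of the 39 members. In the 250 bases before the start, GGGCGG occurred in 59.4% of those 32 and in 35.4% of 27025 genes, CCAAT in 37.5% and 37.5%, TATAAA in 12.5% and 14.3%, and TTCNNNGAA in 6.25% and 8.13%. GGGCGG was found in higher as well as lower members, Col1a2 and Col6a2 among the higher ones. TTCNNNGAA was found in Col28a1 and Col6a5, and in no called member with an entry. Such matches describe letters in these windows only.

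**Figure D3:**
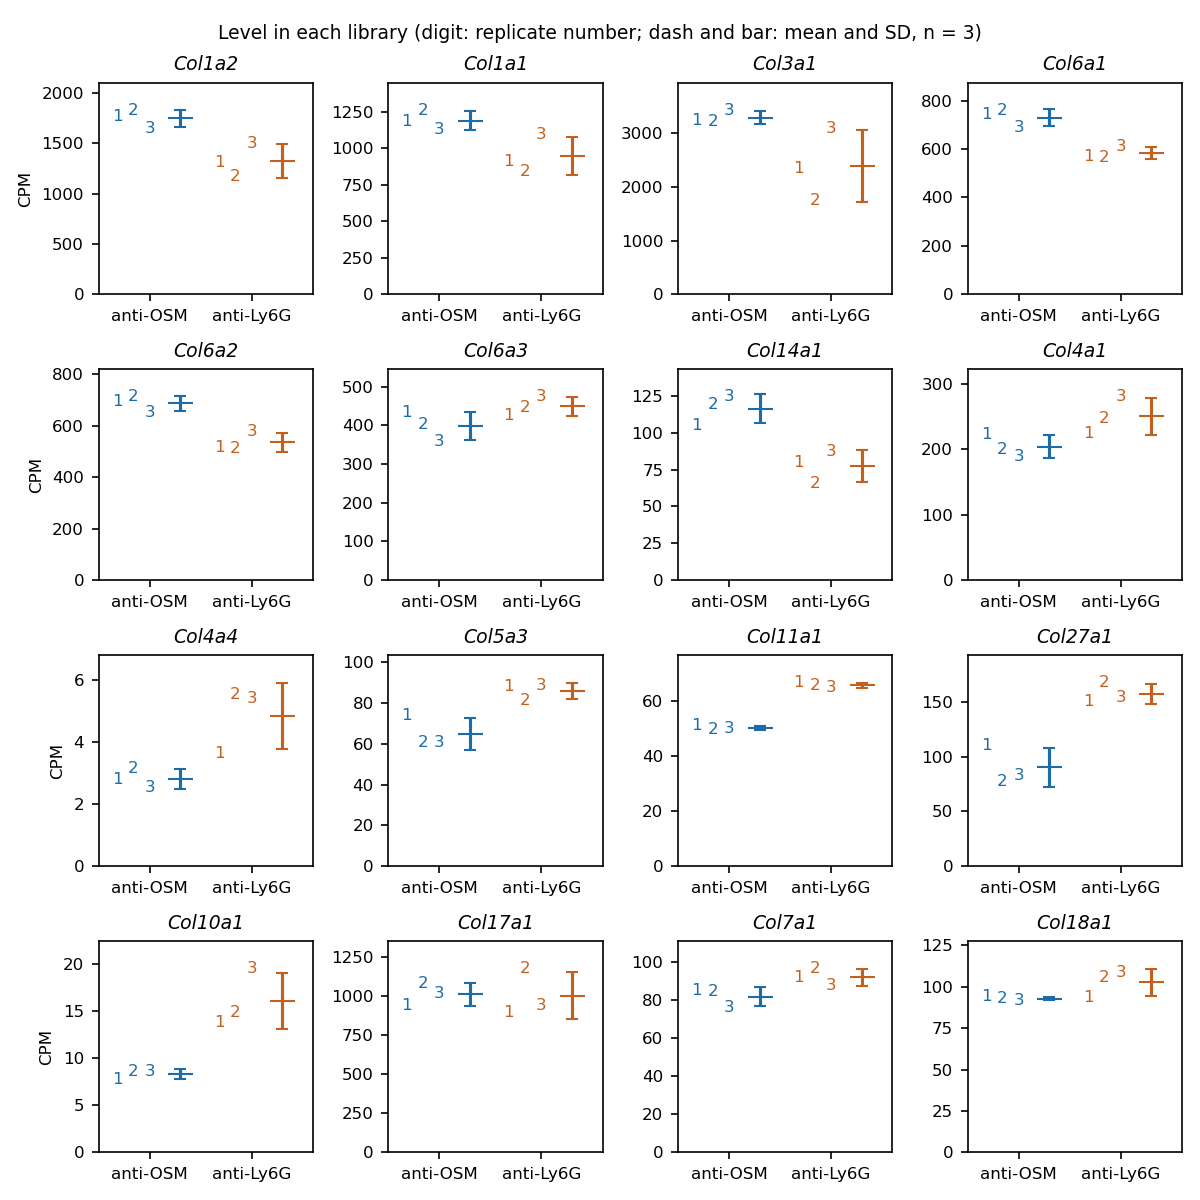
CPM of 16 collagen genes in each library (digits give the replicate number), with the mean and SD of 3 libraries per group and axes that start at 0. Col10a1, Col11a1 and Col27a1 show groups well apart, while anti-Ly6G replicate 3 lies nearest the anti-OSM values in Col1a1, Col1a2 and Col3a1.

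Of the 6 beaded filament genes, which encode the chains of type VI collagen, 2 were higher with anti-OSM and 0 lower. Among all genes tested, 5.81% were higher and 6.27% lower. Col6a1 (chr10:76708792-76726044) was measured at 741, 759.8 and 690.4 CPM in the anti-OSM libraries and 571, 566 and 613 CPM in the anti-Ly6G libraries. Col6a2 (chr10:76595756-76623630) was at 693, 712 and 652 CPM in the anti-OSM libraries and 516, 511 and 576 CPM in the anti-Ly6G libraries. In both genes all anti-OSM libraries exceeded all anti-Ly6G libraries, with log2 fold changes of 0.32 (adjusted p = 0.0282, SE 0.075) and 0.36 (adjusted p = 0.0244, SE 0.079). Both passed without anti-Ly6G replicate 3 and in none of the other 5 fits that left out a library. Col6a3, the long chain that joins them in the common form of the molecule, was at 432, 403 and 359 CPM with anti-OSM and 425, 446 and 474 CPM with anti-Ly6G. Its groups overlapped and its log2 fold change was -0.17 (adjusted p = 0.231, SE 0.087), below 0. Col6a5 and Col6a6 encode chains that can take the place of Col6a3, and Col6a5 is restricted to few tissues, skin among them. Col6a5 was at 29.1, 54.1 and 38.8 CPM with anti-OSM and 16.4, 12.7 and 32.9 CPM with anti-Ly6G. The groups overlapped through anti-Ly6G replicate 3, with a log2 fold change of 0.98 (adjusted p = 0.175, SE 0.40) and a 95% interval of -0.0083 to 1.96. With that library left out it passed (1.48, adjusted p = 0.0190). Col6a6 (0.59, adjusted p = 0.276) and Col6a4 (-0.72, adjusted p = 0.247, at 0.562 and 0.926 CPM) did not pass.

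The balance between collagen chains was compared as 12 ratios of TPM. Some pair chains of different molecules, such as Col3a1 and Col1a1, or alternative chains, such as Col6a5 and Col6a6. The ratio of Col6a3 to Col6a1 was 0.241, 0.216 and 0.210 in the 3 libraries given anti-OSM, against 0.304, 0.321 and 0.313 in those given anti-Ly6G. The lowest anti-Ly6G ratio was above the highest anti-OSM ratio, and each group was tight. Col6a1 to Col6a2 stayed close to even, at 1.02 ± 0.00847 and 1.06 ± 0.0251 (SD, n = 3 each), and overlapped. Col1a1 to Col1a2 was 0.601 ± 0.00786 and 0.630 ± 0.0157 with no overlap, while Col3a1 to Col1a1, at 2.96 ± 0.260 and 2.65 ± 0.399, overlapped. Col4a1 to Col4a2, the chains of the common type IV molecule, was 1.35 ± 0.0145 and 1.38 ± 0.0394 and overlapped. Col6a5 to Col6a6 was 1.42 ± 0.163 and 1.04 ± 0.188 with no overlap. Ratios whose groups did not overlap (Col6a3 to Col6a1, Col5a3 to Col5a1, Col1a1 to Col1a2 and Col6a5 to Col6a6) had an exact 2-sided permutation p of 0.1 each, the smallest that 3 against 3 libraries allow, and 0.3 after adjustment over the 12 ratios, so none could pass.

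**Figure D4:**
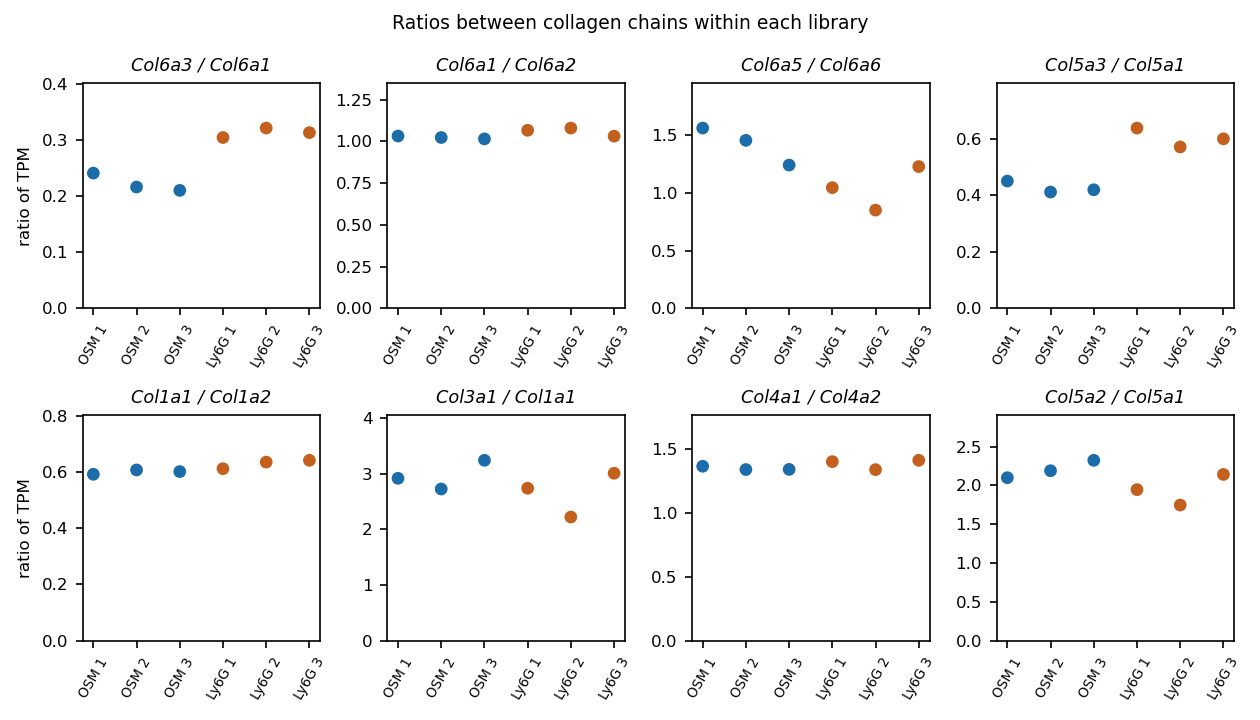
Ratios of TPM between collagen chains (y axes from 0) in each of the 6 libraries (OSM, anti-OSM; Ly6G, anti-Ly6G), 1 point a library. Col6a3 to Col6a1 lies between 0.210 and 0.241 in the anti-OSM libraries and between 0.304 and 0.321 in the anti-Ly6G libraries.

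All 6 type IV genes, the network of basement membranes, had negative log2 fold changes, with a median of -0.28. Of all 19915 genes tested, 10170 had positive values, and the median was 0.01. Of the 6 type IV genes 1 passed, beside 12.1% of all genes tested. Col4a4 (chr1:82448419-82587034), a chain best known from kidney and other specialised basement membranes, was at 2.79, 3.15 and 2.52 CPM in the anti-OSM libraries and 3.62, 5.52 and 5.40 CPM in the anti-Ly6G libraries. The groups did not overlap, though anti-Ly6G replicate 1 lay closer to the anti-OSM values than the others did, and the log2 fold change was -0.78 (adjusted p = 0.0325, SE 0.19). It passed only without anti-Ly6G replicate 1 among the fits that left out a library. Col4a1, a chain of the type IV molecule found in nearly all basement membranes, was at 224, 199 and 189 CPM with anti-OSM and 224, 247 and 281 CPM with anti-Ly6G. Its partner Col4a2 was at 159.9, 145 and 138 CPM with anti-OSM and 156, 180.3 and 194 CPM with anti-Ly6G. For Col4a1 the highest anti-OSM value and the lowest anti-Ly6G value almost met, for Col4a2 the groups overlapped, and neither Col4a1 (-0.30, adjusted p = 0.0905) nor Col4a2 (-0.26, adjusted p = 0.113) passed. Col4a3 (-0.49, adjusted p = 0.129), Col4a5 (-0.14, adjusted p = 0.622) and Col4a6 (-0.13, adjusted p = 0.771) did not pass either. Col4a5 and Col4a6 changed sign when single libraries were left out, reaching 0.052 and 0.16. The multiplexins sit at basement membranes and carry releasable C-terminal fragments, endostatin in the case of Col18a1. Col18a1 was at 93.8, 92.7 and 91.7 CPM with anti-OSM and 93.4, 106 and 109 CPM with anti-Ly6G, and Col15a1 at 50.1, 49.8 and 50.95 CPM with anti-OSM and 49.3, 48.6 and 58.9 CPM with anti-Ly6G. Neither multiplexin had an unadjusted p under 0.05. The groups overlapped in both, with log2 fold changes of -0.15 (adjusted p = 0.218, SE 0.072) and -0.056 (adjusted p = 0.706, SE 0.084).

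Neither of the 2 anchoring genes passed, in edgeR, DESeq2 or limma-voom, and 1 of them had an unadjusted p under 0.05. In edgeR 12.1% of all genes tested passed, and the share with an unadjusted p under 0.05 was not counted. Col17a1, the transmembrane collagen of hemidesmosomes in basal keratinocytes, was at 939, 1084 and 1016 CPM with anti-OSM and 898, 1176.5 and 939.6 CPM with anti-Ly6G. The groups overlapped, and the log2 fold change was 0.012 (adjusted p = 0.960, SE 0.11) with a 95% interval of -0.25 to 0.27. Col7a1, which forms the anchoring fibrils beneath the epidermis, was at 85.2, 84.4 and 75.9 CPM with anti-OSM and 91.8, 96.4 and 87.5 CPM with anti-Ly6G. Its anti-Ly6G values all lay above the anti-OSM ones by a small margin, and the log2 fold change of -0.17 (adjusted p = 0.160, SE 0.071), with a 95% interval of -0.33 to -0.0055, did not pass. Markers of basal keratinocytes, the cells that make Col17a1, stood at 8458 to 10688 CPM in sum with anti-OSM, against 12693 to 13625 with anti-Ly6G. Of these 4 markers 1 was lower, Krt14 (-0.55, adjusted p = 0.0271), and 0 higher. The lower count was 0 without any one anti-OSM library and without anti-Ly6G replicate 1. Over all genes tested, 6.27% were lower. The part of these cells in the values of Col17a1 was not tested.

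Of the 6 FACIT genes 1 passed, beside 12.1% of all genes tested. Col14a1 (chr15:55307644-55520803), a fibril-surface collagen of dermis and tendon, was at 105, 119 and 124.5 CPM in the anti-OSM libraries and 80.1, 65.6 and 87.1 CPM in the anti-Ly6G libraries. The groups were apart, and the log2 fold change of 0.58 (adjusted p = 0.0160, SE 0.11) was the highest among the called members. It passed in 3 of the 6 fits that left out a library, those without anti-OSM replicate 1, anti-Ly6G replicate 2 or anti-Ly6G replicate 3. Col16a1, a collagen found near the dermal-epidermal junction and the most abundant of the class at 63.8 TPM, was at 162, 168 and 142 CPM with anti-OSM and 166, 169 and 159.7 CPM with anti-Ly6G. Its groups overlapped (-0.070, adjusted p = 0.596). Col12a1, close kin of Col14a1, had a log2 fold change of -0.24 and did not pass (adjusted p = 0.269). Col20a1, Col22a1 and Col19a1 ranged from -0.10 to 0.26 and did not pass.

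Among the 8 short chain, transmembrane and other collagens, Col10a1 alone passed in edgeR, beside 12.1% of all genes tested. DESeq2 called Col23a1 as well. An unadjusted p under 0.05 in edgeR was found for 4 of the 8, and the share of all genes under it was not counted. Col8a1, a short chain collagen of vessel walls and of the membrane beneath the corneal endothelium, was at 356, 346 and 373 CPM with anti-OSM and 435, 388 and 412 CPM with anti-Ly6G. All anti-OSM values were below all anti-Ly6G values, but the log2 fold change of -0.20 (adjusted p = 0.106, SE 0.072) did not pass. Col8a2, its partner chain, was at 71.2, 74.6 and 62.1 CPM with anti-OSM and 66.0, 79.2 and 66.5 CPM with anti-Ly6G and overlapped (-0.025, adjusted p = 0.891). Col23a1, a transmembrane collagen of epithelia, was at 29.8, 34.5 and 30.6 CPM with anti-OSM and 32.2, 44.1 and 53.4 CPM with anti-Ly6G. Its groups overlapped, its log2 fold change was -0.45 (adjusted p = 0.126, SE 0.17), and it passed without anti-Ly6G replicate 1 (adjusted p = 0.0296). Col13a1, a transmembrane collagen of cell contacts, was at 2.32, 2.60 and 2.87 CPM with anti-OSM and 2.75, 3.09 and 2.93 CPM with anti-Ly6G and did not pass (-0.17, adjusted p = 0.480). Col25a1, which neurons make, also did not pass (-0.20, adjusted p = 0.314). Col28a1, a collagen of peripheral nerve, was at 11.2, 13.7 and 10.0 CPM with anti-OSM and 8.998, 7.97 and 10.4 CPM with anti-Ly6G (0.35, adjusted p = 0.147). Col26a1 was among the least abundant members, at 0.810, 0.474 and 0.841 CPM with anti-OSM and 0.554, 0.493 and 0.590 CPM with anti-Ly6G (0.37, adjusted p = 0.428).

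Genes whose products make, bind or degrade collagens were taken from 7 lists with 90 genes in all, of which 89 were tested, 11 were higher and 13 lower with anti-OSM. Beside these and the counts of single lists, 5.81% of all 19915 genes tested were higher and 6.27% lower. Small leucine-rich proteoglycans, which coat collagen fibrils and set their spacing, were higher for 5 of 10 and lower for 0. They include Ogn (0.69, adjusted p = 0.00499), Aspn (0.71, adjusted p = 0.0167) and Dcn (0.57, adjusted p = 0.0198). The higher count of this list was 1 without anti-OSM replicate 1 or 3 and 6 without anti-Ly6G replicate 3. Positive values were found for 6 of the 10. Fmod went the other way, with groups that did not overlap, and did not pass (-0.38, adjusted p = 0.0701). DESeq2 called 6 of the list higher and 1 lower. Of 16 basement membrane and hemidesmosome partners 6 were lower and 1 higher, with Itgb4, the hemidesmosomal integrin chain (-0.58, adjusted p = 0.0134), among the lower ones. The lower count was 1 without anti-OSM replicate 1 or 3 and 7 without anti-Ly6G replicate 3.

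The folding and hydroxylation enzymes that mature collagen chains in the endoplasmic reticulum had 1 of 18 higher, Plod1 (0.52, adjusted p = 0.0337), a lysyl hydroxylase, and 1 lower, Colgalt2 (-0.55, adjusted p = 0.0150), a collagen galactosyltransferase. Of 14 genes for procollagen cleavage and crosslinking, Tll1 was higher (0.36, adjusted p = 0.0474) and Loxl4, a lysyl oxidase that crosslinks fibrils, was lower (-0.96, adjusted p = 0.0122). Of 9 collagen receptors tested 0 were higher and 3 lower, Itga10 (-0.89, adjusted p = 0.00307), an integrin chain of chondrocytes, Mrc2 (-0.51, adjusted p = 0.0140), which takes up collagen fragments, and Itga2 (-0.42, adjusted p = 0.0232); Gp6 had no counts. Among 7 collagen-degrading enzymes Mmp13, a collagenase, was lower (-2.74, adjusted p = 0.00706), and Fap (0.39, adjusted p = 0.0365) and Ctsk (0.61, adjusted p = 0.0394) were higher. Of 15 genes of the TGF-beta pathway, a main inducer of collagen genes, 1 was higher, Tgfb1 (0.37, adjusted p = 0.0265), and 1 lower, Smad7, the inhibitor of that pathway (-0.62, adjusted p = 0.0155). With 1 gene in each direction, the folding, cleavage and TGF-beta lists were near the shares over all genes, 5.81% higher and 6.27% lower. In the 6 fits that left out a library, the lists of Loxl4 and Mmp13 kept their count of 1 lower. The higher count of the cleavage and crosslinking genes, 1 with Tll1, was 0 in the 5 of those fits that kept anti-Ly6G replicate 3, and also 0 in limma-voom, with no filter and with the replicate block. For the folding enzymes the higher count was 0 in 4 of the 6 fits and 3 without anti-Ly6G replicate 3, and the lower count was 0 without anti-OSM replicate 1 or 3. The higher counts of the degrading enzymes and the TGF-beta genes were 0 in the 5 fits that kept anti-Ly6G replicate 3, the lower TGF-beta count was 0 without any anti-OSM library, and 1 to 3 receptors were lower.

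The labelled tissue, ear skin, holds several sources of collagen, and markers of some moved with the groups. Beside the counts that follow, 5.81% of all genes tested were higher and 6.27% lower. Of 10 fibroblast markers 5 were higher with anti-OSM and 0 lower, among them Cd34 (0.49, adjusted p = 0.00964), Dpt (0.47, adjusted p = 0.0312) and Clec3b (0.42, adjusted p = 0.0320), and their summed level was 1407 to 1475 CPM with anti-OSM, against 1041 to 1250 with anti-Ly6G. Leaving out a library gave 1 to 4 higher. Fibroblasts' part in the higher values of Col1a2, Col6a1, Col6a2 and Col14a1 was not tested. Of 10 skeletal muscle markers 8 were lower with sums of 2987 to 3593 and 4577 to 4917 CPM, and 3 of 7 macrophage markers were higher with sums of 1823 to 2365 and 1089 to 1680 CPM. Endothelial markers (0 of 9 called, 328 to 340 and 282 to 331 CPM) and adipocyte markers (0 of 6 called, 304 to 355 and 303 to 331 CPM) did not pass in edgeR. At an unadjusted p under 0.05 there were 2 and 0 genes, and DESeq2 called 1 and 0. The share of all genes under that unadjusted p was not counted. Of 9 markers of pericytes and smooth muscle 1 was higher and 1 lower (366 to 373 and 356 to 396 CPM), of 8 Schwann and nerve markers 2 were higher (523 to 603 and 522 to 565 CPM), and of 6 suprabasal keratinocyte markers 1 was higher (13780 to 15969 and 12960 to 19977 CPM). That suprabasal count of 1 higher was 0 with no filter and in 4 of the 6 fits that left out a library. Krt1, a suprabasal keratin, did not pass (-0.68, adjusted p = 0.0522) and its groups did not overlap, and 1 suprabasal marker was lower under upper-quartile scaling, DESeq2, limma-voom, the filter of 1 CPM and the replicate block. Leaving out a library gave 4 to 8 lower muscle markers and 0 to 7 higher macrophage markers, 0 to 1 higher and 0 to 2 lower pericyte and smooth muscle markers, and 0 to 1 higher Schwann and nerve markers.

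**Figure D5:**
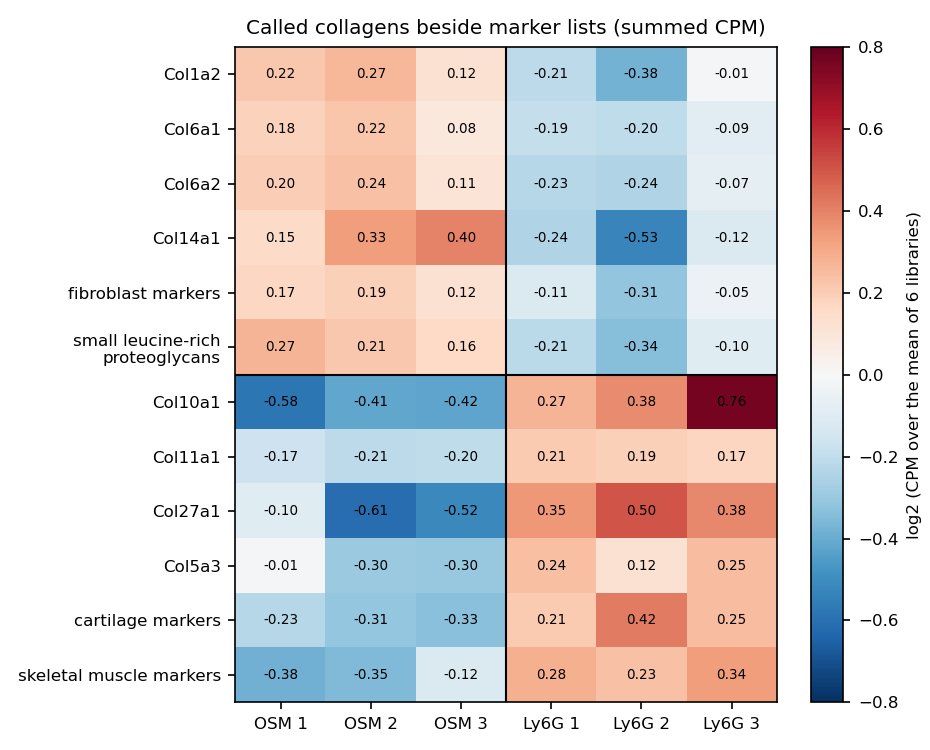
Log2 of CPM over the geometric mean of the 6 libraries (colour, with the value in each cell) for 8 called collagen genes and for the summed CPM of 4 gene lists, by library (OSM, anti-OSM; Ly6G, anti-Ly6G). Rows were picked and placed by direction of change, so the blocks are not a result. Col4a4, also called, and the other lists are not shown. The upper block holds genes and lists above the mean in all 3 anti-OSM libraries and the lower block those below it, and Col1a2 in anti-Ly6G replicate 3 is close to 0.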

How the data were processed

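Polyadenylated RNA of mouse ear skin was sequenced, and the 6 antibody libraries were used. Per the file headers, the authors deposited TPM, FPKM and read count columns for every gene and library. The 6 FPKM columns were not used. Read counts as deposited are whole numbers that summed to 52163179 to 64122588 per library, so 3 counts equal 0.0466 to 0.0565 CPM. TPM values as deposited had the same sum in each library. The submitters' processing notes name HISAT2 2.1.0, StringTie 2.1.3b and edgeR 3.40.2, among other tools, with no roles. The rule for assigning reads to genes, and any use of strand, were not given in the sources used here.

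Counts of all genes were tested with edgeR 4.0.16 in R 4.3.3 (filterByExpr, TMM, robust quasi-likelihood F-test, 2-sided, Benjamini-Hochberg adjustment over 19915 genes, threshold 0.05). Log2 fold changes are of anti-OSM over anti-Ly6G, and CPM uses TMM-scaled library sizes. TPM served for levels between genes and for ratios. On counts simulated for this comparison with 19601 genes tested, the method found 6.0% of 50 genes with a 1.25-fold change, 46.0% with 1.5-fold and 74.0% with 2-fold. Of its 119 calls, 8.4% were false, which is above the threshold of 0.05. The changed genes were drawn from all expression levels and were fewer than the genes called in the data. No pair of libraries in a group agreed within sampling noise, so all were kept.

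The members, classes and lists were chosen with earlier results of these data known. Library values are given for called members of at least 1 CPM, the 2 most abundant members of each class by TPM and 11 well-known chains, and up to 3 members of each partner or marker list are named, those with the smallest p; Acan, Cnmd and others outside this rule, including Col6a5, were named after their values were seen. The labels do not say that replicate numbers pair the libraries, and the main fit used no pairing. Positions are from RefSeq on GRCm38.p6, the assembly that mm10 names. Alternatives were RLE and upper-quartile scaling, TMM without collagen genes, DESeq2 1.42.0, limma-voom (limma 3.58.1), other filters, leaving out each library and a replicate block.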

Additional observations from a re-analysis of the deposited data

How the results depend on the processing

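Under RLE or upper-quartile scaling, TMM without the collagen genes, limma-voom and both other filters on low counts, the same 9 collagen genes were called. DESeq2 kept these 9 and called 13, adding Col1a1, Col3a1, Col4a1 and Col23a1, and so 2 rather than 1 basement membrane genes. Leaving out a library gave 0 to 8 higher and 3 to 5 lower collagen genes (4 and 5 with all libraries), 2 to 7 fibrillar (4), 0 to 1 basement membrane (1), 0 to 3 beaded filament genes (2), and 0 anchoring genes in every fit, with 1 to 15 higher and 4 to 14 lower partner genes (11 and 13). Over all genes, these fits called 240 to 1545 higher and 420 to 1447 lower. Both counts were below those with all libraries (1157 and 1249), except without anti-Ly6G replicate 3. The cause was not tested.

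With the replicate block, 2 collagen genes were higher, Col1a2 (adjusted p = 0.0640) and Col6a1 (adjusted p = 0.0537) being lost, 1 beaded filament gene was called and 5 genes were lower. The labels state no pairing. Same-numbered libraries correlated at 0.01, 0.04 and 0.12 in their deviations from the group means. Anti-OSM replicate 1 and anti-Ly6G replicate 2 correlated best with each other, at 0.08, and the remaining libraries with their own number. Such correlations, with 3 libraries a group, cannot exclude pairing or a shared batch. Over all genes, the block gave 1325 higher and 1275 lower, beside 1157 and 1249 without it.

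Without single libraries, 8 genes that never passed changed sign: Col17a1 from -0.066 to 0.14, Col4a5 from -0.26 to 0.052, Col4a6 from -0.30 to 0.16, Col20a1 from -0.043 to 0.54, Col22a1 from -0.19 to 0.043, Col19a1 from -0.50 to 0.68, Col15a1 from -0.11 to 0.036 and Col8a2 from -0.080 to 0.066. Col19a1 was also at 0.15 in limma-voom and 0.035 with the replicate block. The beaded filament share of collagen was 0.56 percentage points higher with anti-OSM by TPM and -0.028 by counts. The 3 higher macrophage markers became 7 in DESeq2, 6 with the replicate block and 1 with no filter. The cause of these changes was not tested. In the simulation 46% of 1.5-fold changes were found with 3 libraries a group. Its changed genes were fewer than those called in the data and came from all expression levels. That rate therefore need not hold for collagens, and a collagen that did not pass is not shown to be unchanged.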

Other observations

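Several collagen genes lie beside each other, and the values of such neighbours are set side by side here, on GRCm38.p6. Col4a1 and Col4a2, read from a shared start region in opposite directions and overlapping by 85 bases, had log2 fold changes of -0.30 and -0.26. Col4a3 and Col4a4, which overlap by 114 bases, had -0.49 and -0.78, and reads in such overlaps cannot be told apart without strand. Col4a5 and Col4a6, 1274 bases apart on the X chromosome, had -0.14 and -0.13. Col6a1 and Col6a2, with 85161 bases between them, had 0.32 and 0.36. Col3a1 and Col5a2, with 24624 bases between them, had 0.46 and 0.26. On chromosome 9, Col6a5 had 0.98, its neighbour Col6a6, 27823 bases away, 0.59, and Col6a4, 27854 bases away on the other side, -0.72. Of these genes, Col6a1, Col6a2 and Col4a4 passed.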
